A study of Mus musculus with 10 samples.

Results

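The SOX genes described here are 9 mouse genes from 3 groups of the family. They are Sox1, Sox2, Sox3 and Sox21 of the B group and Sox7, Sox17 and Sox18 of the F group. Sox4 and Sox11 are of the C group. Below, the group names mean these genes only, and Sox14 (B) and Sox12 (C) are counted with the other SOX genes. The 9 genes were chosen by symbol out of 21900 protein-coding genes with a position in the RefSeq table. The rule uses no measured value, but the genes were chosen with earlier results of these data known. The measurement was the position of peaks of OTX2, a homeodomain transcription factor, by CUT&RUN, in which an antibody directs a nuclease to its target so that the DNA beside it is released and sequenced. Peaks belonged to a gene when their centre lay inside it or within 50 kb of either end, or when the authors' deposited table named it as nearest gene. By distance this gave 5 of 6319 peaks in epiblast stem cells (EpiSCs) and 31 of 42711 in definitive endoderm (DE). The table's naming added 5 DE peaks, all of them at Sox11. Counts below are by distance unless the authors' naming is stated.

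Both states came from 1 line, 7H OTX2-dTAG-EGFP, of a BL6/129 hybrid background, in which OTX2 carries an HA epitope. The medium of the EpiSCs, a culture model of the epiblast, was N2B27 holding NVP (175 nM), FGF2 (12.5 ng/ml) and Activin A (20 ng/ml). For DE, EpiSCs spent 16 h in CDM holding CHIR (3 µM) and Activin A (40 ng/ml), and the next 24 h with LDN (100 nM) and a higher dose of Activin A (100 ng/ml). Live cells of the DE were then sorted by DAPI. Anti-HA was used on 2 samples of 500000 cells per state. Controls were IgG on 3 samples of tagged EpiSCs, and anti-HA on DE of the parental line 5.8 (1 sample), made in the same medium and without the tag. IgG on tagged and on parental DE (1 sample each) was not used here.

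The authors deposited 1 peak list per state for both HA replicates. No value below therefore has a replicate spread, no test between the states was possible, and the depth of sequencing behind the lists was unknown. The DE list was the longer by far, and a gene with more DE than EpiSC peaks is the common case, seen at 79.2% of protein-coding genes. The lists hold no peak height, so width is given as the sole measure of a peak. The control lists were short, with 202, 149 and 200 IgG peaks and 14 parental HA peaks, and 0.932% of protein-coding genes had a control peak within 50 kb. None of the 9 SOX genes did, and 0 of their 36 HA peaks within 50 kb overlapped a control peak. Over the lists the share was 0.791% in EpiSC and 0.0819% in DE, so these zeros are no result about the SOX genes.

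SOX proteins share an HMG box that bends DNA, and they act with partner factors on enhancers. The B group is known from the epiblast and the neural plate: Sox2 and Sox3 act in the epiblast, Sox1 marks early neural tissue, and Sox21 acts as a repressor in neural progenitors. The F group is known from endoderm and vessels, with Sox17 a main regulator of definitive endoderm, Sox7 expressed in extraembryonic endoderm and endothelium, and Sox18 in endothelium. Sox4 and Sox11 are found in many progenitor cells, neural ones among them. Expression values were not used here, so the labelled cell types were not checked against markers, and the authors' marks of changed genes were not used.

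The B group (4 genes) and the F group (3 genes) had the same number of DE peaks, 9 within 50 kb. Those of the B group lay at 3 of its genes, as Sox3 had none. Of the F genes Sox17, the regulator of definitive endoderm, had 4 of the 9 peaks, and the others were at Sox7 and Sox18. The numbers moved with the assignment of peaks: within 25 kb the B group had 3 DE peaks and the F group 6, within 100 kb they had 15 and 18, and by the authors' deposited nearest genes 1 and 3. In EpiSCs the 4 chosen B genes had 1 peak, at Sox2, and the F group had none. Within 50 kb the C group had the most peaks in both states, with 4 in EpiSC and 13 in DE from 2 genes, and 10 of the 13 were at Sox4. Within 100 kb the C group had 17 DE peaks, 1 fewer than the F group. Of all 9 genes, 3 had an EpiSC peak (Sox2, Sox4 and Sox11), beside 40.8% of protein-coding genes, and 8 had a DE peak, beside 82.8%. With more DE than EpiSC peaks stood 8 genes, beside the 79.2% given above, and with more EpiSC than DE peaks none, beside 1.05%. These shares are near those of all genes, so the presence of a peak does not set the 9 genes apart.

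**Figure D1:**
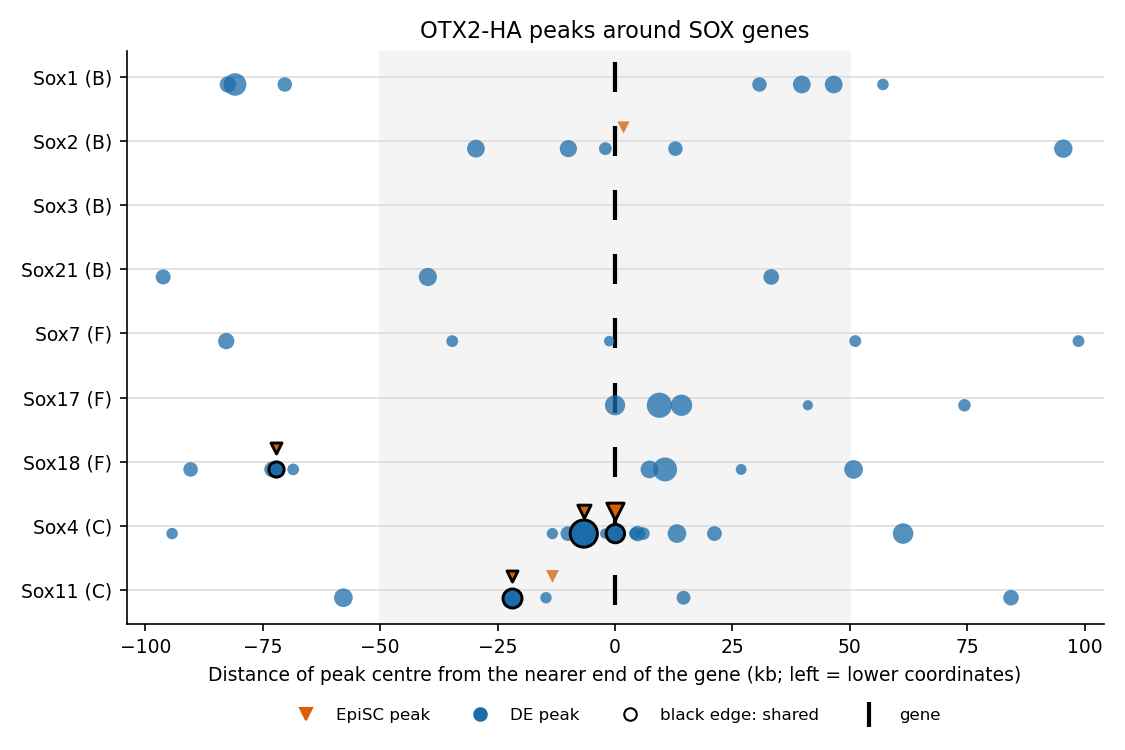
Peaks around each SOX gene (rows, group in brackets), with the distance of the peak centre from the nearer gene end in kb on the x axis. Triangles are EpiSC peaks, circles DE peaks, marker area follows peak width, a black edge marks a peak shared between the lists and the shaded band is the 50 kb window. Sox3 has no peak, and Sox4 has 10 DE peaks in the band.

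Because the 9 genes are short, from 1804 bp (Sox18) to 8451 bp (Sox11), they were also set beside the 7939 protein-coding genes of at most 10 kb, a comparison chosen after seeing the data. Of these short genes 36.4% had an EpiSC peak and 71.3% a DE peak. The median number of DE peaks per gene was 3 over the 9 genes, 3 over all protein-coding genes and 2 over the short ones. The median in EpiSC was 0 in all 3 sets.

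Sox2, a core factor of pluripotent and neural progenitor cells, lies on chromosome 3 at 34649995 to 34652461 on the plus strand, inside the long non-coding RNA gene Sox2ot (34560381 to 34677993). It had 4 DE peaks and 1 EpiSC peak, and the centres of all 5 lay within Sox2ot. The DE peaks were 208, 195 and 108 bp wide at 29.6, 9.94 and 2.07 kb upstream, and 139 bp wide at 12.9 kb downstream. The widest of them is at chr3:34620282-34620489. The EpiSC peak (chr3:34654015-34654112, 98 bp) lay on the other side of the gene from the nearest DE peak, 1.60 kb past its end, and the gap between these peaks was 6031 bp. Sox2 thus had peaks in both states but none in common. The authors' deposited table names Sox2 as nearest gene for the DE peak at 2.07 kb, Sox2ot for the other 3 DE peaks and Gm27611 for the EpiSC peak.

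Sox1, an early marker of neural tissue, lies on chromosome 8 at 12395519 to 12399555 on the plus strand. It had 3 DE peaks, 139, 209 and 208 bp wide, all downstream at 30.7, 39.8 and 46.6 kb. The widest is at chr8:12439221-12439429. Within 100 kb there were 7 DE peaks, of which 3 were upstream at 70.3 to 82.4 kb, so a stretch of over 100 kb around Sox1 held no peak. The nearest EpiSC peak was 472 kb away.

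Sox21, a repressor of the B group, lies on chromosome 14 at 118233233 to 118237030 on the minus strand. It had 2 DE peaks, 1 on each side: chr14:118193274-118193491 (218 bp) at 39.9 kb downstream and another of 163 bp at 33.3 kb upstream. Neither was assigned to Sox21 in the authors' deposited table, which names Gm4675 and Gm9376. The nearest EpiSC peak was 179 kb away.

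Sox3, the X-linked gene of the group (chromosome X, 60891366 to 60893430), had no peak within 100 kb in either state. The nearest DE peak was 106 kb and the nearest EpiSC peak 7521 kb from it. Over the B group, 1 of 9 DE peaks was within 5 kb of its gene, 2 were between 5 and 20 kb, and 6 were farther, with a median distance of 30.7 kb. Over the protein-coding genes of at most 10 kb, 21.1% of the pairs of a gene and a DE peak within 50 kb were within 5 kb, 28.2% between 5 and 20 kb and 50.8% farther, with a median of 20.4 kb.

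Sox17, which drives endoderm formation, lies on chromosome 1 at 4490928 to 4497426 and had 4 DE peaks and no EpiSC peak. One lay inside the gene at chr1:4493506-4493773 (268 bp). The others lay on the side of higher coordinates, 9.45, 14.2 and 41.1 kb away, and were 419, 300 and 68 bp wide. The widest, at chr1:4506665-4507083, was among the widest of its list, of which 2.68% were at least as wide. Those 3 nearest peaks were all wider than the upper quartile of the list (209 bp), while the farthest was near the minimum of 62 bp. The nearest EpiSC peak was 305 kb away. In the authors' deposited table the peak inside Sox17 is the only row that names it.

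Sox7, known from extraembryonic endoderm, lies on chromosome 14 at 63943706 to 63950732 and had 2 DE peaks on the side of lower coordinates. The widest, chr14:63909006-63909097 (92 bp), lay 34.7 kb away within Pinx1, and the nearer one (74 bp) was 1.22 kb from the gene. Both were narrower than the lower quartile of the DE list (93 bp), and the authors' deposited table names Sox7 for both. The nearest EpiSC peak was 290 kb away.

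Sox18, an endothelial gene (chromosome 2, 181669837 to 181671640), had 3 DE peaks at 7.33, 10.7 and 26.9 kb on the side of higher coordinates, with widths of 208, 379 and 78 bp. The widest, chr2:181682108-181682486, lay within Tcea2. Sox18 stood in the most crowded window of the 9 genes, with 6 other protein-coding genes within 50 kb, and the authors' deposited table names Tcea2 and Lkaaear1 for its peaks. The nearest EpiSC peak was 72.2 kb away, within Samd10, and was shared with DE. Over the F group, 2 of 9 DE peaks were within 5 kb, 4 between 5 and 20 kb and 3 farther, with a median distance of 10.7 kb. The medians of B (30.7 kb) and F lay on either side of the 20.4 kb of the short genes, each rests on 9 peaks of 1 list, and the difference was not tested.

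**Figure D2:**
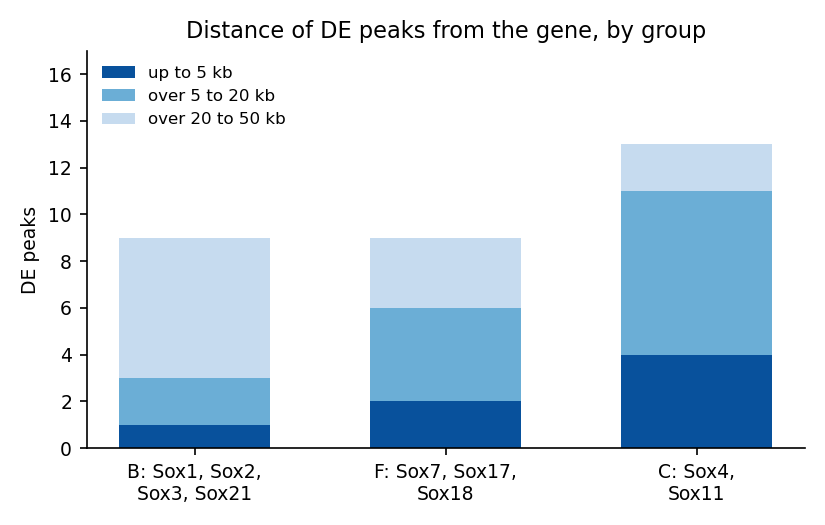
Number of DE peaks within 50 kb (y axis) of the genes of each group (x axis), stacked by distance from the gene. B and F have 9 peaks each, of which 6 and 3 lie over 20 kb away, and C has 13, of which 2 do.

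Sox4 lies on chromosome 13 at 28948919 to 28953699 on the minus strand, with no other protein-coding gene within 50 kb. It had 10 DE peaks, a number reached by 6.57% of protein-coding genes and by 4.32% of those of at most 10 kb, and 2 EpiSC peaks, reached by 19.8% of protein-coding genes. The DE peaks formed a run of 39.4 kb across the gene. On the downstream side 4 lay at 2.08, 6.64, 10 and 13.3 kb, with widths of 72, 487, 143 and 84 bp. On the upstream side 6 lay at 0.0750, 4.27, 4.81, 6.03, 13.2 and 21.2 kb, with widths of 223, 96, 157, 106, 230 and 144 bp. All 10 were within 25 kb, and widening the window to 100 kb added 2. The authors' deposited table names Sox4 for the 6 upstream peaks and Gm26735 for the 4 downstream ones. Of the 10, 6 were at or above the median width of the DE list.

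Both EpiSC peaks of Sox4 were kept in DE. The downstream one (chr13:28942354-28942468, 115 bp) lay wholly inside the widest DE peak of the 9 genes (chr13:28942031-28942517, 487 bp), and 1.29% of the DE list was at least that wide. The other (chr13:28953694-28953889, 196 bp) overlapped the DE peak at chr13:28953663-28953885 by 192 bp, and both peaks spanned the annotated start of Sox4.

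Sox4 was the sole gene of the 5 with a promoter window in the RefSeq table (Sox1, Sox2, Sox21, Sox4 and Sox11) whose window was overlapped by a peak, and it was overlapped in both states. Each window runs from 250 bases before to 50 bases after a transcript start. Over 27025 genes with such windows, 7.08% had one overlapped by an EpiSC peak, 20.3% by a DE peak and 6.80% by both. The 250 bases before the start are given here for Sox4, the promoter under peaks in both states, with the 186 bases under both peaks in capitals. They are followed by Sox11, the other gene of its group, and Sox2, the B gene with peaks in both states, which have no base under a peak. All are from RefSeq, GRCm38.p6, 5′ to 3′ on the gene's strand: chr13:28953700-28953949 (minus), chr12:27342719-27342968 (minus) and chr3:34649745-34649994 (plus).
Sox4: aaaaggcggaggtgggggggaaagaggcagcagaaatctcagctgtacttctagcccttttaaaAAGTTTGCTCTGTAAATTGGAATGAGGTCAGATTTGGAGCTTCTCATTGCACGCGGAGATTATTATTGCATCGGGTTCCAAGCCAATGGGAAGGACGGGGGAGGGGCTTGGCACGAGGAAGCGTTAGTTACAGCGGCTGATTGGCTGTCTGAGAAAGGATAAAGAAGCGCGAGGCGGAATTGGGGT
Sox11: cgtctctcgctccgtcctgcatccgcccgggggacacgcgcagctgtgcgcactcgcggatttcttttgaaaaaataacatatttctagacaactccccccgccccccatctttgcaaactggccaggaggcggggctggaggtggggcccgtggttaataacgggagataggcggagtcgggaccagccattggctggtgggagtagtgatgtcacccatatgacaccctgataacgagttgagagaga
Sox2: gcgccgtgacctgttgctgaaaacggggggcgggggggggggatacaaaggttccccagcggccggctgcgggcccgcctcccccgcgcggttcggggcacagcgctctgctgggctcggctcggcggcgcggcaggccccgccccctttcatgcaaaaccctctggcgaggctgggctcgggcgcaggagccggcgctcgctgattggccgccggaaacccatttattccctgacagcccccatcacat

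The capitals run without a break from base 186 before the start to the last base before it. The base composition of the 3 runs differs, with 50.8% G and C at Sox4, 58.0% at Sox11 and 72.0% at Sox2. The letters TAATCC, the core of the site that OTX2 is known to bind, were searched on both strands and were in none of the 5 promoters of these genes, while 6.25% of 32851 promoter runs of 250 bases hold them. Of the SOX site cores searched in the same way, ACAATG was in none of the 5 (10.7% of all runs) and ACAAAG was in 1, at bases 206 to 201 before the start of Sox2 on its own strand (16.5% of all runs). These matches describe letters in a short window and say nothing of binding.

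Sox11, the closest relative of Sox4 in the set, lies on chromosome 12 at 27334268 to 27342718 on the minus strand, also with no other protein-coding gene within 50 kb. It had 3 DE peaks, 2 downstream at 22 and 14.7 kb (238 and 86 bp) and 1 upstream at 14.6 kb (127 bp), and 2 EpiSC peaks. The EpiSC peak at chr12:27312232-27312310 (79 bp) lay inside the widest DE peak (chr12:27312112-27312349), in the long non-coding RNA gene Gm52005. The other EpiSC peak, chr12:27320880-27320988 (109 bp) at 13.3 kb downstream, was 1263 bp from the nearest DE peak. The authors' deposited table names Sox11 for 8 DE peaks, more than for any other of the 9 genes. Of those 8, 5 lay farther than 50 kb, up to 129 kb away.

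**Figure D3:**
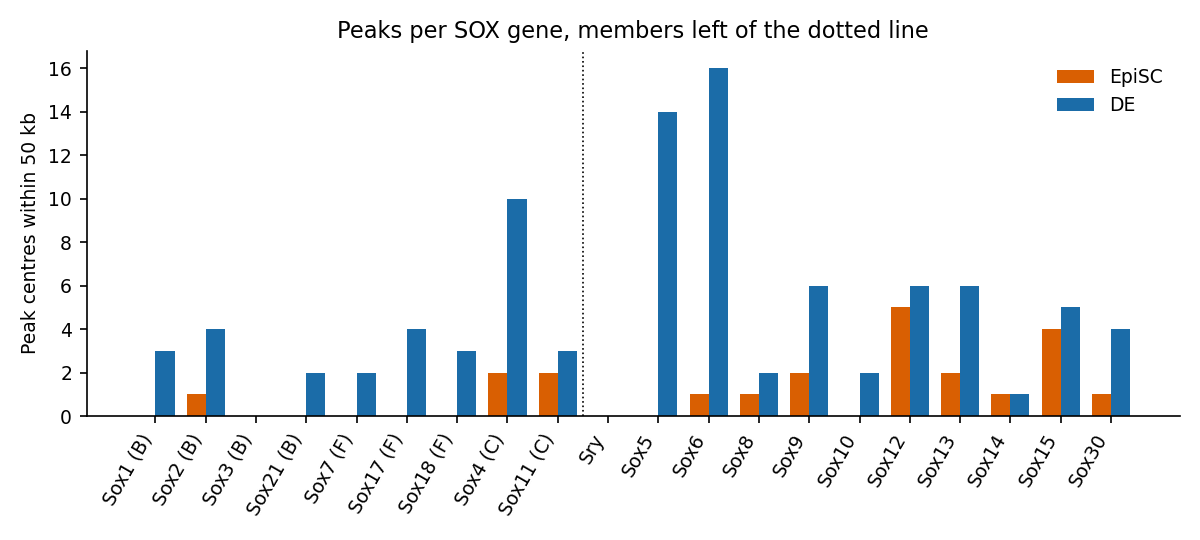
Number of peak centres within 50 kb (y axis) of each SOX gene (x axis), EpiSC in orange and DE in blue, from 1 pooled list per state. The 9 genes of the 3 groups stand left of the dotted line, where Sox4 has the highest count in DE (10) and Sox4 and Sox11 the highest in EpiSC (2 each).

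Within 50 kb, peaks shared between the states were seen at the C genes and at none of the B and F genes. Of its 4 EpiSC peaks 3 overlapped a DE peak (75%, 95% Wilson interval 30.1 to 95.4%), beside 78.8% of the EpiSC list. The 1 EpiSC peak of the B group did not, and the F group had none to keep. Of the DE peaks, 3 of 13 at C genes overlapped an EpiSC peak (23.1%, 8.18 to 50.3%), beside 11.7% of the DE list. At B genes and at F genes the count was 0 of 9 each, which restates that the 1 EpiSC peak of the B group was not shared and that the F group had none within 50 kb. The shares of the lists lay within the intervals of the C group, and the intervals cover counting error only.

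Peaks close to a gene were a further measure. A DE peak within 5 kb was present at 4 of 9 genes (Sox2, Sox7, Sox17 and Sox4), beside 57.8% of protein-coding genes and 37.8% of those of at most 10 kb, a distance chosen after seeing the data. In DE the order by number within 50 kb was Sox4 with 10, Sox2 and Sox17 with 4, Sox1, Sox18 and Sox11 with 3, Sox7 and Sox21 with 2, and Sox3 with none. With 1 list per state there is no spread by which neighbours in this order could be told apart. By the position of their centre, of the 31 DE peaks 14 lay in no annotated gene, 14 in non-coding genes and 3 in a protein-coding gene (Sox17, Pinx1 and Tcea2). The DE peak across the start of Sox4 counts as non-coding here, since its centre lies outside Sox4 and in Gm46405. Over the whole DE list, 44.4% of peaks lay in no gene, 8.94% in non-coding genes only and 46.6% in a protein-coding gene. The whole list is not limited to windows around short genes, so it is not a like comparison for the 31 peaks. The difference was not tested. Of the 14 peaks in non-coding genes 7 were at Sox4, 4 at Sox2, 2 at Sox11 and 1 at Sox1. Exon positions were not used here.

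**Figure D4:**
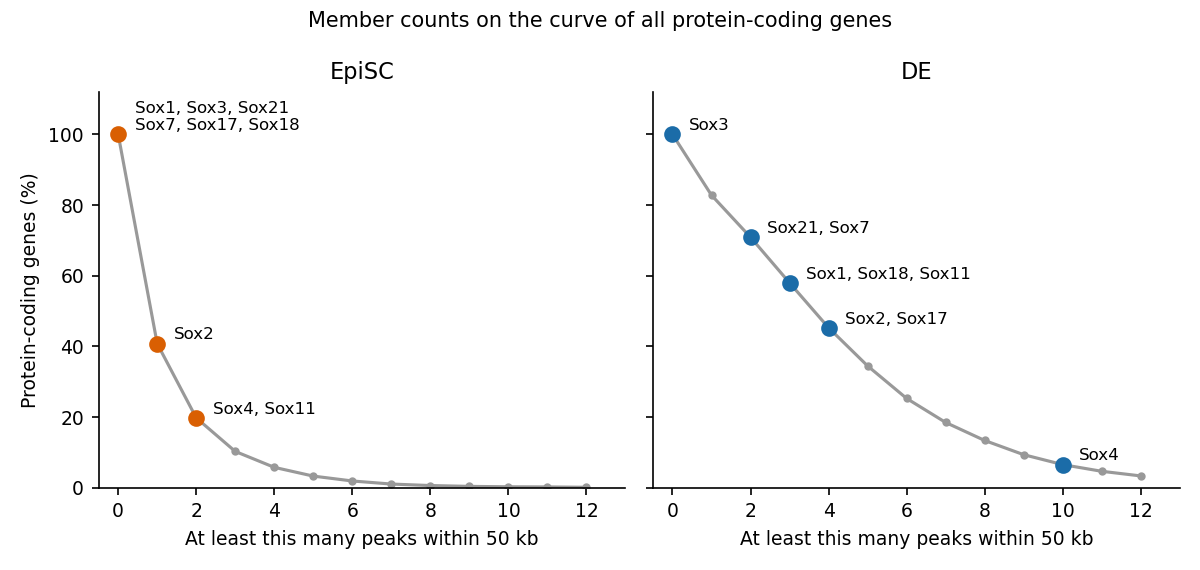
Percent of protein-coding genes (y axis) with at least the given number of peaks within 50 kb (x axis), in EpiSC (left) and DE (right), with the 9 SOX genes marked on the grey curve. Sox4 stands at 6.57% in DE, and the other genes with a peak stand between 45.3% and 70.9%.

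The order of the groups by width depended on the measure. The median DE peak was 195 bp wide in the B group (108 to 218 bp), 208 bp in the F group (68 to 419 bp) and 143 bp in the C group (72 to 487 bp), against 138 bp in the whole list. The order of B and F turned within 100 kb (medians of 175 and 146 bp) and by the authors' deposited nearest genes (108 and 92 bp). It was kept within 25 kb (139 and 284 bp) and at the EpiSC minimum width (195 and 268 bp). With peaks at or above the list's median width it was also kept (202 and 300 bp). When the DE list was limited to its 6319 widest peaks, as many as the EpiSC list has, peaks of at least 259 bp were left. Of the 31 DE peaks 5 were among them (16.1%), beside 14.8% of the DE list. They were 3 at Sox17, 1 at Sox18 and 1 at Sox4, and none at a B gene within 50 kb, while a 336 bp peak lay 80.9 kb upstream of Sox1. The narrowest of the 5 was the 268 bp peak inside Sox17, and the widest one left out was the 238 bp peak of Sox11. Between the groups this was 0 of 9 B peaks, 4 of 9 F peaks and 1 of 13 C peaks, a description of 1 list with no test. At the lower mark of the list's median width the order was another, with 8 of 9 B peaks, 5 of 9 F peaks and 7 of 13 C peaks wider than it. The B count includes a Sox1 peak and a Sox2 peak of 139 bp, just above the median of 138 bp.

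**Figure D5:**
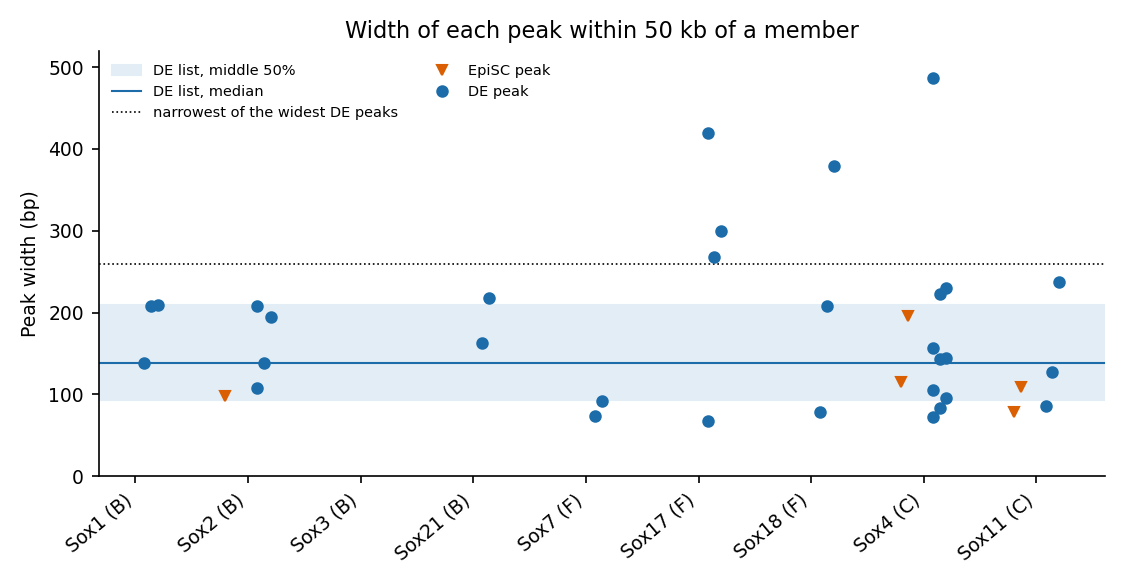
Width in bp (y axis) of each peak within 50 kb of the 9 genes (x axis), EpiSC as triangles and DE as circles. The blue line and band are the median (138 bp) and middle 50% of the DE list and the dotted line its 6319 widest peaks (259 bp and more), above which stand 3 peaks of Sox17, 1 of Sox18 and 1 of Sox4.

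The other 11 SOX genes give the family's range. Of these, 8 had an EpiSC peak and 10 a DE peak, with medians of 1 and 5 peaks, and 9 had more DE than EpiSC peaks. Over all protein-coding genes these shares were 40.8%, 82.8% and 79.2%, and among the 9 genes of the 3 groups 3 had an EpiSC peak. The highest totals were at Sox6 (1 EpiSC and 16 DE peaks) and Sox5 (0 and 14), partners in cartilage formation that are long genes of 569905 and 953863 bp, so their windows are larger. Next was Sox12, the third gene of the C group, with 5 and 6 and a length of 4436 bp. Sox14, a B gene not among those chosen, had 1 EpiSC peak at 1.48 kb and 1 DE peak at 27.1 kb. Sry, the testis-determining gene on chromosome Y, had no peak. Of the 9 of these genes with a promoter window, 1 had it overlapped, in both states: Sox8, named after its value was seen.

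The pairs of counts of Sox2 and Sox17 were common ones. The pair of Sox2 (1 EpiSC and 4 DE peaks) was shared exactly by 746 other protein-coding genes, of which Rac3, Ccdc166 and Myog are the closest in length. The pair of Sox17 (0 and 4) was shared by 1135, of which Krt86, Cyct and Nat8 are the closest. Likeness here is the sum of the differences in 2 counts, 1 per state.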

How the data were processed

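Peak positions came from the authors' deposited lists, 1 per state for both HA replicates. The labels of EpiSC HA replicate 2 and of the tagged DE IgG sample also name the DE list, which was read as a slip. Per the submitters' processing notes, Bowtie2 2.3.5.1, SAMtools 1.14, Picard 2.26.10, bedtools 2.30 and MACS2 2.2.6 were used on mm10. Per the file names, HA peaks were merged over 50 bp. The calling threshold and control are not given in the sources used here. The tables with nearest genes hold the same intervals (6319 in EpiSC, 42711 in DE). Of the IgG lists, all 149 intervals of replicate 2 are also in replicate 3, so these are not independent.

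Genes came from RefSeq GRCm38.p6, the assembly of mm10, and gene ends were used because the gene table has no strand. Strand was read from the promoter table, which holds 5 of the 9 genes, and for the other 4 sides are given by coordinates. Peaks were shared when they overlapped by at least 1 bp. Counts were made in Python 3.11.15 with pandas 2.3.3 and checked against a plain loop on made-up intervals. Alternatives were other windows, other width and overlap minimums, lists without control peaks, the authors' nearest genes and other gene sets. Peaks given with coordinates are, by rule, each gene's widest peak per list, peaks at the gene itself within 1 kb, and all EpiSC peaks within 50 kb. Other SOX genes named are the 3 with most peaks and those with none, and Sox8 and Sox14, which were added after their values were seen. The genes and lists were chosen with earlier results of these data known. Peaks of 1 locus are not replicates of a condition.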

Additional observations from a re-analysis of the deposited data

How the results depend on the processing

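No paired analysis was possible because both HA replicates of a state were pooled into 1 list before deposition, and for the same reason neither replicate could be left out. A value counted as changed when a count moved by over 1.5 times or a percentage left its Wilson interval. Of 253 values under the alternatives 184 were kept and 69 changed, among them 31 of 136 counts for single genes and 5 of 21 median widths. Of those kept, 34 left out control peaks or an IgG replicate at the 9 genes, where 0 control peaks lay, so they could not change and say nothing of stability. Further kept values were also fixed in advance. Limiting DE to its widest peaks, or both lists to the EpiSC minimum width, leaves every EpiSC count as it was. A count of 0 cannot rise in a narrower window or under a width filter. The number kept is therefore no measure of stability.

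The window decides the DE count of the B group, with 3 peaks at 25 kb and 15 at 100 kb, while the F group had 18 DE peaks and 1 EpiSC peak at 100 kb. The percent of protein-coding genes with a peak was then 31.7% in EpiSC and 74.8% in DE at 25 kb, and 53.3% and 89.0% at 100 kb. By the authors' nearest gene, the B group had 0 EpiSC peaks and 1 DE peak, the F group 3 DE peaks, and 5 genes a DE peak. With DE cut to as many peaks as EpiSC has, by width, B, F and C had 0, 4 and 1 DE peaks, 3 genes had one, 25% of C EpiSC peaks were kept, and 34.7% of protein-coding genes had a DE peak. With peaks at or above the median width of their list, B had 0 EpiSC and 8 DE peaks, F 5 DE peaks and C 1 EpiSC and 7 DE peaks. Then 100% of C EpiSC peaks were kept, 1 gene had an EpiSC peak, and 26.2% (EpiSC) and 69.9% (DE) of protein-coding genes had a peak. That percent was 80.7% in DE at the EpiSC minimum width, 31.1% and 75.1% over all genes of the gene table, 36.4% and 71.3% over genes of at most 10 kb, 57.8% in DE at 5 kb, and 37.8% with both. The last 3 settings were chosen after seeing the data. Each of these settings changes the peaks or genes counted by its construction.

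Distance to the transcript start was run for the C group and for single genes with a known strand, and left the C counts at 4 EpiSC and 13 DE peaks. A kept percentage of the F group was not run, as that group has no EpiSC peak within 50 kb.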
